A study of Drosophila melanogaster with 33 samples.

Results

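Larval brains of Drosophila melanogaster homozygous for the l(3)mbt allele E2 and raised at 17 °C were compared with brains of the wild-type strain w1118 (WT). The comparison took the 3 arrays titled for E2 at 17 °C and the WT arrays numbered 1 to 3, all from the experimentation site IRB, so it used 6 of the 33 arrays of the series. Each array held total RNA of 1 sample on an Affymetrix Drosophila array. The other arrays held E2 brains at 29 °C, ts1 brains at 17 °C and 29 °C, ts1/E2 transheterozygous brains at 29 °C, and tumours of ts1 brains kept by transplantation into adult flies. The labels give no temperature for WT, and no stage, sex or number of brains for any group. The allele and the temperature of rearing therefore cannot be told apart in a comparison of E2 at 17 °C with WT. Whether the 3 arrays of a group came from separate pools of larvae is not stated. The p-values then measure only the spread between samples within groups, which may be technical. In the main comparison that spread came from all 24 IRB arrays in 8 groups and not from the 6 arrays alone.

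The protein L(3)mbt carries malignant brain tumour repeats and binds chromatin, where it is found with the dREAM complex of retinoblastoma-family and E2F proteins and with the LINT complex. Its loss lets the larval optic lobe overgrow at restrictive temperature, and germ line genes that are normally silent in the brain are transcribed there. Larval brains contain neuroblasts, the neural stem cells of the fly, with the ganglion mother cells, neurons and glia they produce.

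The 6 arrays carried the markers of larval brain. The pan-neuronal RNA-binding protein gene elav lay at 12.12 to 12.34 on the log2 scale of the deposited values, and the glial transcription factor gene repo at 11.02 to 11.67. The mean over 21 neuronal genes ran from 9.44 to 9.60 on the E2 arrays and from 9.43 to 9.58 on the WT arrays. Transcripts of tissues that lie beside the brain were present too, with larval fat body genes at a mean of 11.01 to 11.99 on the E2 arrays and 11.21 to 11.80 on the WT arrays. The E2 arrays resembled each other less than the WT arrays did, with a median correlation to the own group of 0.939 to 0.961 against 0.979 to 0.983. E2 replicate 2 had the lowest of these, at 0.939. It held 668 genes more than 1 log2 unit above the mean of the other E2 arrays and 1094 more than 1 below it. The same counts were 720 and 590 for E2 replicate 1, and 326 and 283 for E2 replicate 3. For the control transcript eIF4a, the 5' signal minus the 3' signal was -1.83, -2.37 and -1.81 on the E2 arrays, and -1.97, -1.92 and -1.50 on the WT arrays. For the control transcript GAPDH the same difference was -2.01, -2.33 and -2.27 on the E2 arrays and -1.15, -1.32 and -1.49 on the WT arrays, without overlap. Its part in the results was not tested.

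l(3)mbt itself, read by the probe set used for the gene, lay at 8.05, 6.76 and 7.75 on the E2 arrays and at 7.79, 7.85 and 6.91 on the WT arrays. The groups overlapped, and the difference of 0.00 ± 0.60 (SE, n = 3 per group, adjusted p = 1) was smaller than the spread between arrays. A second probe set of the gene, dimmer on these arrays, averaged 4.49 in E2 and 2.92 in WT. The labels do not say what the allele changes in the transcript, so these values do not check the genotype.

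Among 8264 genes with signal above background, 252 were called different between E2 brains at 17 °C and WT, which is 3.05% of those tested. Of these, 122 were higher in E2 (1.48%) and 130 lower (1.57%). The calls took an adjusted p in limma below 0.05 together with a log2 difference of 1 or more, which is 2-fold. The higher genes had a median difference of 2.68, and 25 of the 122 differed by 4 or more. The lower genes had a median of -1.85, and 17 of the 130 differed by 4 or more in size. In 45 of the higher genes the WT mean was below 4, and in 52 of the lower genes the E2 mean was below 4, a level near background where the size of a difference is not exact. The count depended on which other arrays set the spread. E2 29 °C replicate 1 stood apart, with a median correlation to its own group of 0.741. Its 5' signal minus 3' signal was -11.96 for eIF4a and -10.53 for GAPDH. Without that array and ts1 29 °C replicate 6, limma called 663 genes, 248 higher and 415 lower, and in the 6 arrays alone 482 genes. Limma called 140 with the tumours left out, 137 without WT replicate 1 and 138 without WT replicate 2. Without E2 replicate 2 it called 122 higher and 72 lower. With array quality weights the count was 908. With the filter on low values set on the 6 arrays compared, it was 246 of 7051 genes.

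**Figure D1:**
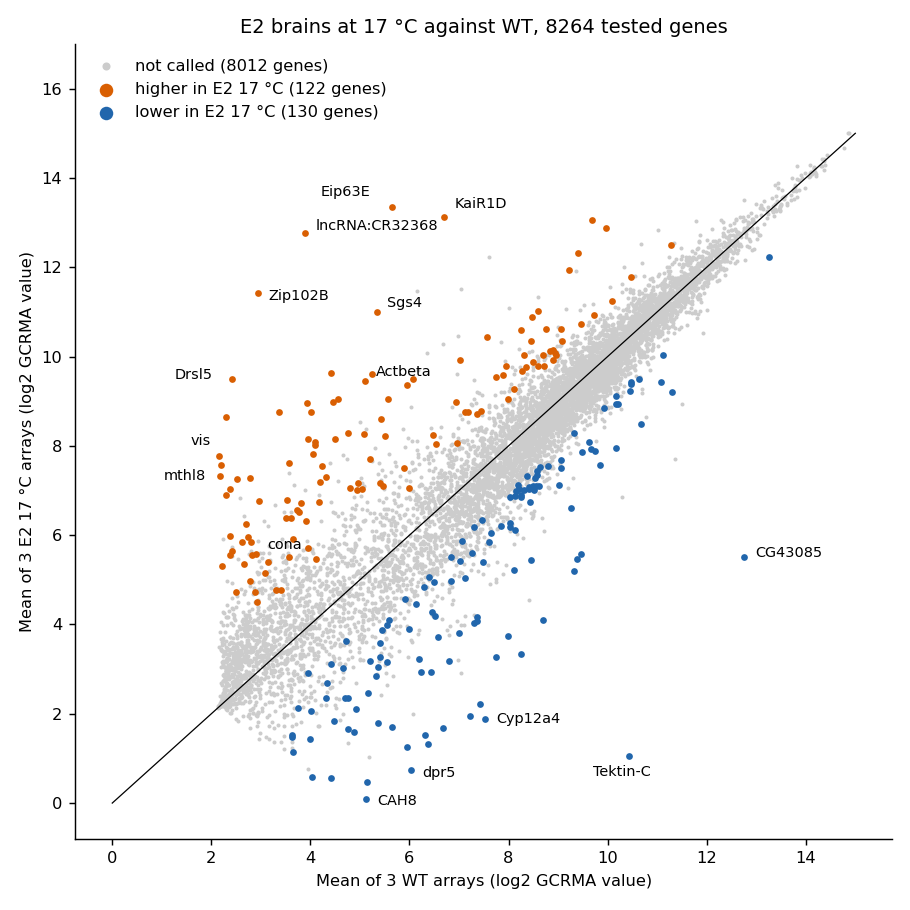
Mean log2 GCRMA value of the 3 E2 17 °C arrays (vertical axis) against the mean of the 3 WT arrays (horizontal axis) for 8264 tested genes, with the line of equal values. Orange points are the 122 genes called higher, blue points the 130 called lower and grey points the rest, and lncRNA:CR32368, Zip102B, Eip63E and KaiR1D stand far above the line while Tektin-C and CG43085 stand far below it.

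The 4 genes farthest above the line with close E2 arrays encode a long noncoding RNA, a zinc transporter, a kinase and a glutamate receptor. The long noncoding RNA lncRNA:CR32368, on chromosome arm 3L, lay at 13.38, 12.61 and 12.28 in E2 and at 3.68, 4.32 and 3.68 in WT. It rose by 8.86 ± 0.60 (adjusted p = 2.02e-08), from background to the level of the brightest genes. Zip102B, a zinc transporter gene on chromosome 4, lay at 11.57, 11.39 and 11.30 in E2 and at 2.94, 2.93 and 2.93 in WT, and rose by 8.48 ± 0.20 (adjusted p = 8.01e-16). Eip63E, which encodes a cyclin-dependent kinase named for its induction by the steroid hormone ecdysone, lay at 13.29, 13.58 and 13.20 against 5.84, 5.57 and 5.56. It rose by 7.70 ± 0.18 (adjusted p = 8.01e-16). The kainate-type glutamate receptor gene KaiR1D lay at 13.05, 13.08 and 13.27 against 6.59, 7.50 and 6.01, and rose by 6.44 ± 0.31 (adjusted p = 1.25e-10). In all 4 genes the lowest E2 array stood more than 5 log2 units above the highest WT array.

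A further group of higher genes was listed near background on all WT arrays and spread more widely in E2. The methuselah-like receptor gene mthl8 was the tightest of these, at 7.76, 7.15 and 7.77 in E2 against 2.20, 2.20 and 2.19 in WT, a rise of 5.36 ± 0.30 (adjusted p = 1.03e-09). A second probe set of mthl8 showed no difference, at 2.24 in E2 and in WT, so the rise rests on 1 of its probe sets. Drsl5, of the drosomycin family of antifungal peptides, lay at 7.60, 10.46 and 10.42 against 2.43, 2.44 and 2.38 and rose by 7.08 ± 1.14 (adjusted p = 0.00113). The homeodomain gene vis, which acts in spermatogenesis, lay at 7.96, 6.34 and 9.04 against 2.16 on each WT array and rose by 5.62 ± 0.81 (adjusted p = 0.000327). The E2 and WT arrays did not overlap in any of these genes, which the rule for choosing the largest differences required.

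The scarlet gene st, an eye pigment transporter, lay at 7.23, 9.55 and 9.18 against 2.31, 2.29 and 2.29, a rise of 6.36 ± 1.49 (adjusted p = 0.0206). The sodium channel family gene ppk15 lay at 5.86, 8.99 and 7.15 against 2.21, 2.15 and 2.14 and rose by 5.17 ± 1.10 (adjusted p = 0.0104), while its second probe set averaged 2.20 in E2 and 2.19 in WT. CG15404 lay at 10.28, 6.19 and 9.80 against 5.25, 2.43 and 2.44, and CG14275 at 8.72, 10.02 and 10.13 against 3.73, 4.37 and 5.13. CG15404 rose by 5.38 ± 0.87 (adjusted p = 0.00112) and CG14275 by 5.21 ± 1.29 (adjusted p = 0.0288), with E2 replicate 2 the lowest E2 array of the former and not of the latter. The call of CG14275 was lost without any of the 6 arrays (adjusted p = 0.0517 to 0.12). That of st was lost without any array other than E2 replicate 1 (adjusted p = 0.0604 to 0.0807), and that of ppk15 without E2 replicate 2 (adjusted p = 0.0593).

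The gene farthest below WT was Tektin-C, which encodes a filament protein of cilia and sperm tails. It lay at 1.05, 1.03 and 1.05 in E2 and at 10.44, 10.47 and 10.38 in WT, and fell by 9.39 ± 1.31 (adjusted p = 0.000257). The SE is larger than the spread of these 6 arrays because the fit pools it with that of the other IRB groups. The uncharacterised gene CG43085 was among the brightest in WT, at 12.90, 12.80 and 12.59, and lay at 3.66, 5.70 and 7.20 in E2, a fall of 7.24 ± 0.91 (adjusted p = 8.36e-05). Its E2 arrays differed among themselves by more than 3 log2 units and all stood far below WT.

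Genes of cell surface recognition proteins were among those that fell. The immunoglobulin-domain gene dpr5 lay at 0.75, 0.73 and 0.74 in E2 against 6.60, 6.06 and 5.46 in WT, and fell by 5.30 ± 0.34 (adjusted p = 7.95e-09). The kekkon family gene kek4 lay at 1.41, 3.77 and 0.69 against 7.49, 7.41 and 6.78, and fell by 5.27 ± 0.94 (adjusted p = 0.00273). CAH8, of the carbonic anhydrase family, lay at 0.10, 0.05 and 0.10 against 5.12, 5.19 and 5.08, a fall of 5.05 ± 0.20 (adjusted p = 3.99e-12). The E2 values of dpr5 and CAH8 are background readings, and their small spread does not measure agreement between brains.

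Several genes of metabolic enzymes fell as well. Cyp12a4, a mitochondrial cytochrome P450 gene, lay at 1.38, 1.14 and 3.12 against 8.06, 7.96 and 6.57, and fell by 5.65 ± 0.97 (adjusted p = 0.00202). Gcat, which encodes glycine C-acetyltransferase, lay at 2.74, 3.32 and 3.98 against 8.89, 9.14 and 6.73, and fell by 4.91 ± 0.91 (adjusted p = 0.00372). pyd3, an enzyme gene of pyrimidine breakdown, lay at 2.82, 0.85 and 0.90 against 7.22, 7.25 and 4.45, and fell by 4.79 ± 0.92 (adjusted p = 0.00493). WT replicate 3 was the lowest WT array in all 3 genes. The groups did not overlap, which the rule for choosing these genes required.

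The other genes with the largest falls were CG30203 (by 5.21 ± 0.95), CG6356 (by 4.99 ± 0.80), CG9451 (by 5.07 ± 1.14) and the solute transporter gene rumpel (by 4.70 ± 1.15). WT replicate 3 was low in CG9451, at 3.92 against 7.28 and 7.94, and in rumpel, at 3.26 against 7.54 and 7.04. The call of CG9451 was lost without E2 replicate 2 or 3 or WT replicate 1 or 2 (adjusted p = 0.0502 to 0.0992), and that of rumpel without any array other than WT replicate 3 (adjusted p = 0.0736 to 0.146). CG30203 and CG6356 kept their calls without each of the 6 arrays.

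**Figure D2:**
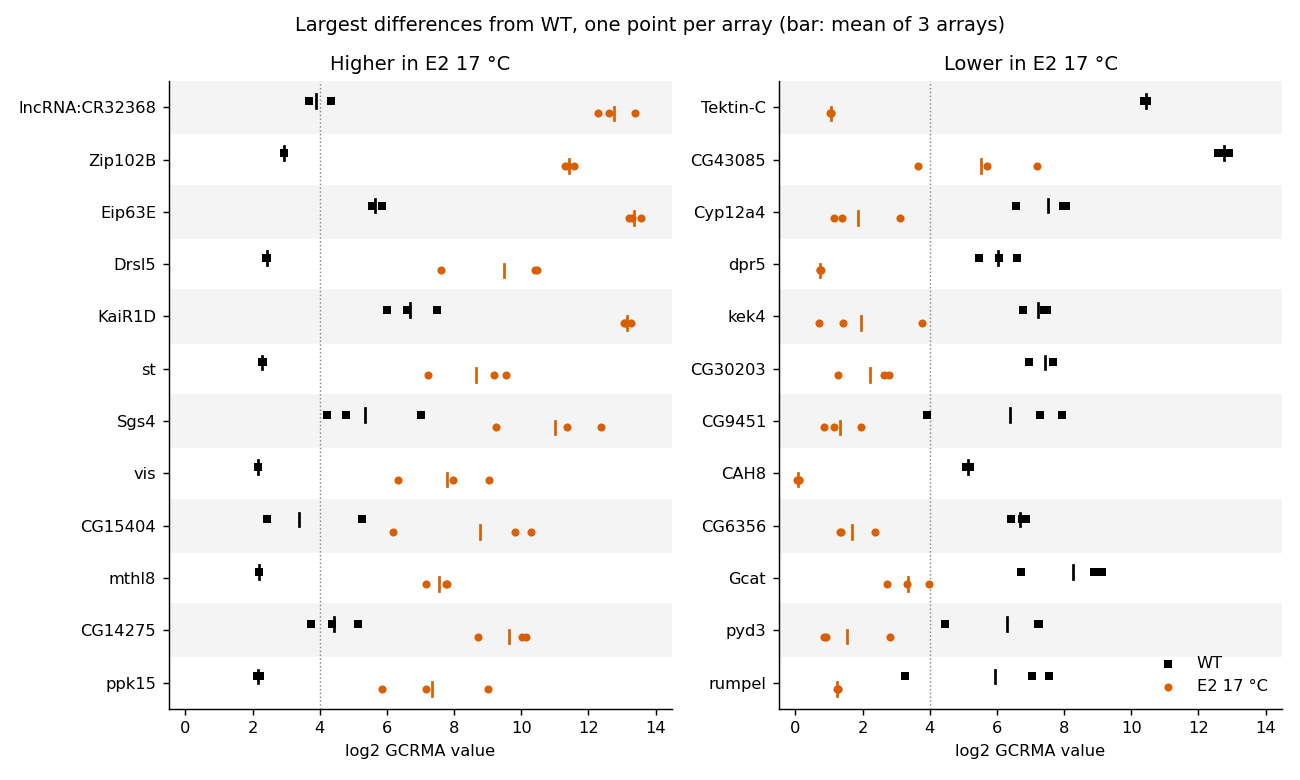
Log2 GCRMA value (horizontal axis) of the 12 genes with the largest rise and the 12 with the largest fall in E2 17 °C brains, 1 point per array with squares for WT, circles for E2 and a bar at the mean of 3 arrays. The groups do not overlap in any row because only genes without overlap were chosen, and the dotted line marks the level of 4 near background. The E2 points of Zip102B, Eip63E and KaiR1D lie close together while those of Drsl5, CG15404 and CG43085 spread.

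A set of 16 reference genes was read at 17 °C whether or not they were called: l(3)mbt itself and 15 genes known from other groups of the series to be high or low in the mutants. Of these, 4 were higher in E2 than in WT (cona, Pxt, Zip102B and Actbeta), 2 lower (Tektin-C and dpr5), and 10 were not called. Most germ line genes among them were not called. cona, which encodes a protein of the meiotic synaptonemal complex, lay at 5.57, 5.83 and 5.33 against 2.67, 3.16 and 2.87, and rose by 2.67 ± 0.27 (adjusted p = 6.02e-06). Pxt, a peroxidase gene needed in oogenesis, lay at 6.16, 3.54 and 7.21 against 2.22, 2.47 and 2.54, and rose by 3.23 ± 0.56 (adjusted p = 0.00222). The arrays of both genes did not overlap, and E2 replicate 2 was the lowest E2 array of Pxt and the highest of cona.

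The remaining germ line reference genes were not called, and neither was Muc14A. The piRNA factor gene krimp lay at 2.32, 2.69 and 2.28 in E2 and at 2.58, 3.11 and 2.51 in WT, a difference of -0.30 ± 0.29 (adjusted p = 0.668). piwi, which encodes the founding member of the Piwi proteins that bind piRNAs, lay at 5.38, 4.13 and 5.07 against 4.32, 4.13 and 4.12, a difference of 0.67 ± 0.37 (adjusted p = 0.37). Kots lay at 3.61, 2.34 and 3.11 against 2.41, 2.36 and 2.26, with a difference of 0.68 ± 0.26 (adjusted p = 0.167), and was called at a difference of 1.02 without E2 replicate 2 (adjusted p = 0.0302). The thioredoxin gene TrxT of the testis lay at 4.76, 3.10 and 6.38 against 2.58, 2.54 and 2.92. Its E2 arrays all stood above WT, with a difference of 2.07 ± 1.04 (adjusted p = 0.317) that did not pass the test. It was called with array quality weights, at 2.98 (adjusted p = 0.00392). The differences were 0.27 ± 0.56 for bgcn, 0.20 ± 0.71 for stil and -0.32 ± 0.37 for Muc14A, with overlapping arrays in each.

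**Figure D3:**
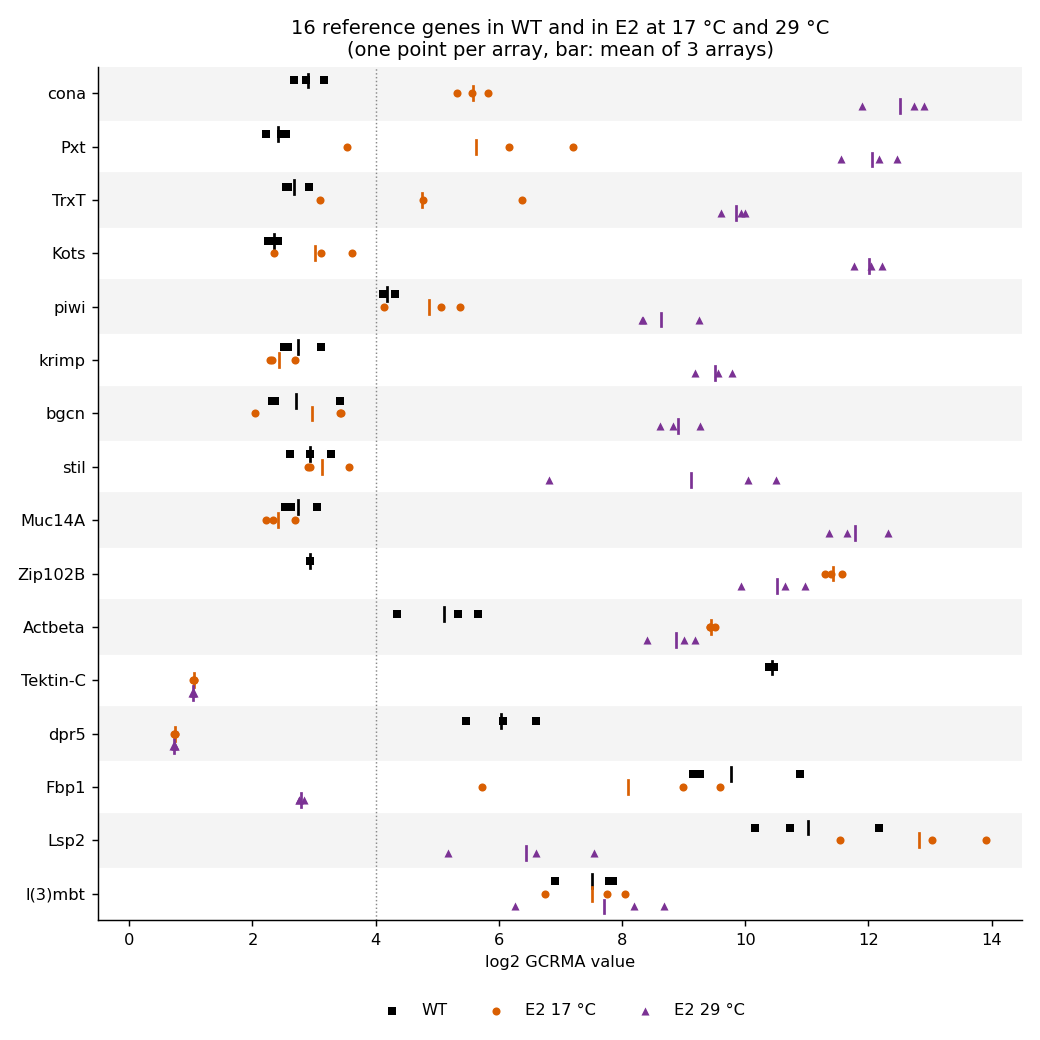
Log2 GCRMA value (horizontal axis) of the 16 reference genes in WT (squares), E2 at 17 °C (circles) and E2 at 29 °C (triangles), 1 point per array with a bar at the mean of 3 arrays. krimp, bgcn, stil and Muc14A sit with WT at 17 °C and far above it at 29 °C, cona lies between, and Zip102B, Actbeta, Tektin-C and dpr5 are already far from WT at 17 °C.

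The same genes were set against E2 brains at 29 °C in the same fit, a comparison in which 4.88% of all tested genes were called, 2.76% higher at 29 °C and 2.12% lower. E2 29 °C replicate 1, with an eIF4a 5' signal minus 3' signal of -11.96, is 1 of the 3 arrays behind every 29 °C mean. Without it, 26 of 55 named genes were called between the temperatures, against 25 with it. Of the 16 reference genes, 9 were higher at 29 °C than at 17 °C, 2 were lower (Fbp1 and Lsp2) and 5 were not called. The genes were chosen with their values in other mutant groups known, so this count is a description. cona averaged 12.51 ± 0.54 (SD, n = 3) at 29 °C against 5.57 ± 0.25 at 17 °C, a rise of 6.94 ± 0.27 (adjusted p = 6.14e-12). krimp rose by 7.08 ± 0.29, Kots by 8.99 ± 0.26, Muc14A by 9.36 ± 0.37 and Pxt by 6.42 ± 0.56 between the temperatures. Zip102B was not called between the temperatures, at a difference of -0.90 ± 0.20, which passed the p-value threshold (adjusted p = 0.00979) and missed the minimum size. Actbeta, the gene of an activin-type ligand, lay at 9.42, 9.42 and 9.51 at 17 °C and 8.41, 9.19 and 9.01 at 29 °C, against 5.33, 5.66 and 4.34 in WT. Tektin-C and dpr5 differed by -0.01 ± 1.31 and -0.01 ± 0.34 between the temperatures.

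Of the 12 genes with the largest rise at 17 °C, 1 was higher again at 29 °C (mthl8, by 2.25 ± 0.30), 4 were lower at 29 °C than at 17 °C and 7 were not called between the temperatures. The genes were chosen on the same 17 °C arrays, so these counts are a description. lncRNA:CR32368 fell by 3.77 ± 0.60 from 17 °C to 29 °C, to 7.06, 9.70 and 10.20, with the lowest value on replicate 1, whose eIF4a 5' signal minus 3' signal was -11.96. Drsl5 fell by 5.82 ± 1.14 to 2.31, 6.28 and 2.44. CG15404 fell by 6.18 ± 0.87 and Sgs4 by 5.98 ± 1.52. Against WT at 29 °C, where 5.87% of tested genes were called, 7 of the 12 were higher, among them Eip63E by 7.27 ± 0.18 and KaiR1D by 6.29 ± 0.31.

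Of the 12 genes with the largest fall at 17 °C, 5 were higher at 29 °C than at 17 °C and 7 were not called between the temperatures. The 5 were CG43085, Cyp12a4, CG9451, Gcat and pyd3. Gcat averaged 9.66 ± 1.01 (SD, n = 3) at 29 °C, above its 17 °C mean by 6.32 ± 0.91 (adjusted p = 0.000298) and 1.41 ± 0.91 from WT (adjusted p = 0.278). Cyp12a4 rose by 5.22 ± 0.97 between the temperatures, and its 29 °C level differed from WT by -0.43 ± 0.97 (adjusted p = 0.783). Tektin-C, dpr5, kek4, CAH8 and CG6356 were lower than WT at 29 °C as well.

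The ts1 allele at 17 °C was set against the 3 WT arrays of its own site, EMBL, in a fit of the 9 EMBL arrays, where 0.823% of tested genes were called. Zip102B lay at 9.50, 9.62 and 9.27 in ts1 brains, higher than WT by 6.53 ± 0.25 (adjusted p = 3.39e-05). Actbeta lay at 9.47, 11.19 and 9.82 and was higher by 5.05 ± 0.52 (adjusted p = 0.00777). Tektin-C was lower by -7.09 ± 0.06 and dpr5 by -2.27 ± 0.17 than WT. These 4 genes were thus called in the same direction in both alleles at 17 °C. Of the 12 genes highest in E2, 4 were called higher in ts1, which were Zip102B, Eip63E, st and CG14275. Of the 12 lowest in E2, Tektin-C and dpr5 were called lower in ts1.

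The difference between the allele effects was tested over all 33 arrays, and 1.21% of tested genes were called, 0.762% with an effect higher in E2 and 0.448% lower. It was called for 9 of the 12 highest genes and 7 of the 12 lowest, and these genes were chosen for being extreme in E2. Eip63E exceeded WT by 6.30 ± 0.28 more in E2 than in ts1 (adjusted p = 7.15e-14), KaiR1D by 5.09 ± 0.50 (adjusted p = 3.67e-07) and lncRNA:CR32368 by 8.13 ± 0.79 (adjusted p = 3.58e-07). cona exceeded WT by 2.15 ± 0.37 more in E2 (adjusted p = 0.00217). Kots went the other way, with an effect lower in E2 by -2.24 ± 0.44 (adjusted p = 0.00709): ts1 lay at 5.80, 5.38 and 4.59. The ts1 arrays of dpr5 and CAH8 had an SD of 0.02 each and the E2 arrays are background readings, so the sizes of their allele differences are not exact. Allele and site cannot be told apart here beyond the WT arrays of each site.

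Genes of cell division lay lower in E2 brains, mostly by amounts that did not pass the test. Of 17 tested cell cycle and DNA replication genes, 2 were called lower and none higher, which is 11.8% called against 3.05% of all tested genes. The median difference was -0.73 against -0.03 for all tested genes, and -0.62 with arrays centred on their median, a scaling that moves the median of all genes to 0.08. The arrays of 15 of the 17 genes lay wholly below WT, against 24.3% of all tested genes. dup, the replication licensing factor Cdt1 of the fly, lay at 8.97, 8.74 and 9.08 against 10.04, 10.49 and 10.01, and fell by 1.25 ± 0.30 (adjusted p = 0.0246). Mcm5, a subunit of the replicative helicase, lay at 9.25, 9.32 and 9.90 against 10.56, 10.85 and 10.48, and fell by 1.14 ± 0.29 (adjusted p = 0.0325). The call of dup was lost without any of the 6 arrays (adjusted p = 0.0507 to 0.134), and that of Mcm5 without any array other than E2 replicate 3 (adjusted p = 0.0618 to 0.151).

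Of 20 tested neuroblast and ganglion mother cell genes, 1 was called lower (5%, against 3.05% of all tested genes), and 5 were called lower without E2 29 °C replicate 1 and ts1 29 °C replicate 6. The list had a median of -0.29, and -0.18 with centred arrays. ase, a proneural transcription factor gene of neuroblasts, lay at 9.08, 9.32 and 9.31 against 10.52, 10.38 and 10.42, and fell by 1.21 ± 0.26 (adjusted p = 0.0123), a call lost without E2 replicate 1 or WT replicate 1 (adjusted p = 0.0572 and 0.0596). The neuroblast factor genes dpn, wor and tll differed by -1.26 ± 0.44, -1.10 ± 0.35 and -1.27 ± 0.56, and the proneural gene l(1)sc by -2.36 ± 0.77 (adjusted p = 0.0963). The E2 arrays of these 4 genes lay wholly below WT. The stem cell polarity gene mira and the fate determinant gene pros differed by -0.54 ± 0.37 and -0.31 ± 0.21. Differences were positive in 7 of the 20 genes, such as pins (0.48 ± 0.16, wholly above WT), klu (0.44 ± 0.77) and Imp (0.22 ± 0.38), and 8 of the 20 lay wholly below WT, against 24.3% of all tested genes. In bulk RNA, fewer cells of a type and less RNA per cell cannot be told apart.

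Of 15 genes of the dREAM and LINT complexes, 1 was called (6.67%, against 3.05% of all tested genes). The retinoblastoma family gene Rbf2 lay at 6.41, 3.98 and 5.80 against 7.71, 7.48 and 7.24, and fell by 2.08 ± 0.55 (adjusted p = 0.0389), a call lost without any array other than E2 replicate 1 (adjusted p = 0.0623 to 0.187). The list's median was -0.35, and the arrays of 8 of the 15 lay wholly below WT, against 24.3% of all tested genes. E2f2, the repressor E2F of the complex, differed by -0.76 ± 0.53, mip120 by -0.49 ± 0.20 and lin-52 by -0.86 ± 0.55. Lint-1, HDAC1, Scm and CoRest overlapped WT, with differences of 0.16 ± 0.16, 0.07 ± 0.21, 0.05 ± 0.15 and -0.11 ± 0.12.

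The 21 tested neuronal genes had no call by limma, and 2 had an unadjusted p under 0.05, against 1444 of all 8264 tested genes. The median of the neuronal genes was 0.03, which turned to -0.03 under quantile normalisation. Of 19 glial genes, 1 was called each way (10.5% called, against 3.05% of all tested genes). Gli, a septate junction gene of the blood-brain barrier, lay at 9.45, 8.85 and 9.51 against 8.31, 8.01 and 8.01, and rose by 1.15 ± 0.32 (adjusted p = 0.0464). The trehalose transporter gene Tret1-1 lay at 7.65, 7.86 and 8.07 against 9.90, 9.31 and 9.26, and fell by 1.63 ± 0.41 (adjusted p = 0.0297). Gli lost its call without any array other than E2 replicate 2 (adjusted p = 0.1 to 0.167), and Tret1-1 without any of the 6 (adjusted p = 0.0574 to 0.145). The 22 neuropeptide genes had no call, with 2 at an unadjusted p under 0.05.

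Of 31 tested piRNA pathway genes, none was called by limma at 17 °C, and 1 was called higher without E2 replicate 2. At an unadjusted p under 0.05 there were 4, against 1444 of all 8264 tested genes. Between the temperatures, 7 were higher in E2 at 29 °C than at 17 °C, against 2.76% of all tested genes. Against WT at 17 °C, aub and vas had the largest differences, 1.33 ± 0.99 and 1.30 ± 0.87, with arrays that overlapped WT. Of 25 germline stem cell and oogenesis genes, 1 was called (Pxt, 4%, against 3.05% of all tested genes), and 2 without E2 replicate 2. Between the temperatures, 9 were higher at 29 °C than at 17 °C, against 2.76% of all tested genes. The mean over 26 genes of this list was 4.98 to 5.21 on the E2 arrays and 4.66 to 4.89 on the WT arrays. The list did not move as a whole. The arrays of 5 tested genes lay wholly above WT and those of 6 wholly below, against 17.5% and 24.3% of all tested genes. Of 14 meiosis genes, cona rose and c(2)M fell (14.3% called, against 3.05% of all tested genes). Between the temperatures, 7 of the 14 were higher at 29 °C, against 2.76% of all tested genes. These lists were chosen with earlier results known, so the 29 °C counts are a description. Some members, such as krimp, lay below 4 on the 6 arrays compared and passed the filter on low values through other arrays. c(2)M, a cohesin-related gene of the synaptonemal complex, lay at 4.20, 5.81 and 4.93 against 6.75, 6.89 and 6.86, and fell by 1.85 ± 0.38 (adjusted p = 0.00839), a call lost without E2 replicate 1 (adjusted p = 0.0528).

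Of 16 testis genes, 2 were called higher and 2 lower, against 1.48% and 1.57% of all tested genes, and with arrays centred on their median 1 was lower. Besides vis and Tektin-C these were betaTub85D, the testis beta-tubulin gene, and can, a testis TAF gene, which was named after its values were seen. betaTub85D lay at 6.96, 5.37 and 6.81 against 3.31, 3.24 and 4.0, and rose by 2.86 ± 0.73 (adjusted p = 0.033), a call lost without any array other than E2 replicate 2 (adjusted p = 0.0575 to 0.129). It fell by 2.72 ± 0.73 from 17 °C to 29 °C (adjusted p = 0.035). can fell by 2.65 ± 0.68 against WT (adjusted p = 0.0355).

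Of 18 tested genes of the ecdysone response, 2 were called higher and none lower (11.1%, against 3.05% of all tested genes). Differences were negative in 5 of the 18, such as ImpE2 (-0.91 ± 1.79) and ftz-f1 (-0.21 ± 0.30), and the arrays of 9 lay wholly above WT, against 17.5% of all tested genes. The median difference was 0.48, and 0.59 with centred arrays. Besides Eip63E, the nuclear receptor gene Eip78C rose by 1.78 ± 0.37 (adjusted p = 0.0094), at 5.66, 5.54 and 5.96 against 4.48, 2.83 and 4.52. It was lower at 29 °C than at 17 °C by -2.37 ± 0.37. The ecdysone-inducible genes ImpE3 and ImpE1 differed by 3.53 ± 1.05 (adjusted p = 0.0672) and 1.84 ± 0.71 (adjusted p = 0.169), with E2 arrays wholly above WT. The receptor genes EcR and usp, whose products bind ecdysone as a pair, differed by -0.07 ± 0.39 and 0.09 ± 0.14.

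Of the salivary glue genes tested, Sgs4 was called higher, and Sgs3, Sgs5, Sgs7 and Sgs8 were not. Sgs4 lay at 12.37, 9.24 and 11.37 against 7.02, 4.21 and 4.78, and rose by 5.66 ± 1.52 (adjusted p = 0.0418), a call lost without any array other than E2 replicate 2 (adjusted p = 0.0593 to 0.179). Sgs3 lay at 13.23, 9.38 and 11.77 against 9.36, 4.97 and 4.10, and differed by 5.31 ± 2.0 (adjusted p = 0.157). Sgs7 and Sgs5 differed by 4.63 ± 1.71 and 3.59 ± 1.32. Sgs8 lay at 10.81, 5.50 and 8.24 against 9.30, 4.56 and 4.04, with overlap, and differed by 2.21 ± 1.97 (adjusted p = 0.637). The glue genes were highest on E2 replicate 1 and lowest of the E2 arrays on replicate 2, and among WT they were highest on replicate 1. Glue genes are known from the salivary gland and respond to ecdysone, and how much gland tissue each sample held was not tested. The mean over 18 ring gland and salivary gland genes was 6.20 to 6.45 on the E2 arrays and 4.16 to 5.46 on the WT arrays.

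Few genes of the metabolic lists were called. All 11 tested glycolysis genes differed in the negative direction, with a median of -0.65 and -0.54 with centred arrays. The arrays of 5 of the 11 lay wholly below WT, against 24.3% of all tested genes. None of the 11 was called by limma, and 6 had an unadjusted p under 0.05, against 1444 of all 8264 tested genes. Tpi and Ald1, which encode glycolytic enzymes, differed by -0.93 ± 0.30 (adjusted p = 0.0963) and -0.74 ± 0.23 (adjusted p = 0.075). None of 18 oxidative phosphorylation genes was called by limma, 2 had an unadjusted p under 0.05, and their median was -0.12. Of 24 cytochrome P450 and glutathione transferase genes, Cyp12a4 alone was called (4.17%, against 3.05% of all tested genes).

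Other lists had few calls. Of 16 hemocyte genes, 1 was called (6.25%, against 3.05% of all tested genes). This gene was vkg, a type IV collagen gene of basement membranes. It lay at 6.18, 4.52 and 4.93 against 8.89, 8.39 and 7.07, and fell by 2.91 ± 0.59 (adjusted p = 0.0074), a call lost without WT replicate 1 (adjusted p = 0.0537). It was higher at 29 °C than at 17 °C by 3.07 ± 0.59. The antimicrobial peptide gene Mtk lay at 7.35, 5.09 and 8.06 against 2.65, 2.82 and 2.25, without overlap, and the difference of 4.26 ± 1.31 missed the threshold (adjusted p = 0.0773). No gene was called among 10 larval fat body, 11 muscle, 8 trachea and cuticle, 7 immune, 10 heat shock, 10 clock, 12 Hippo, 13 JAK-STAT and JNK, and 8 sex composition genes by limma. At an unadjusted p under 0.05 there were 2 heat shock, 2 Hippo, 2 JAK-STAT and JNK, 1 immune and 1 clock gene and 0 in the other 4 lists. Among all 8264 tested genes there were 1444. Without E2 replicate 2, 1 JAK-STAT and JNK gene was called higher. Likewise 1 immune gene was called higher in the 6 arrays alone and without E2 29 °C replicate 1 and ts1 29 °C replicate 6, and 1 heat shock gene when E2 replicate 2 was left out as well as these. In optic lobe and eye genes, 1 of 14 was called, which was st (7.14%, against 3.05% of all tested genes).

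**Figure D4:**
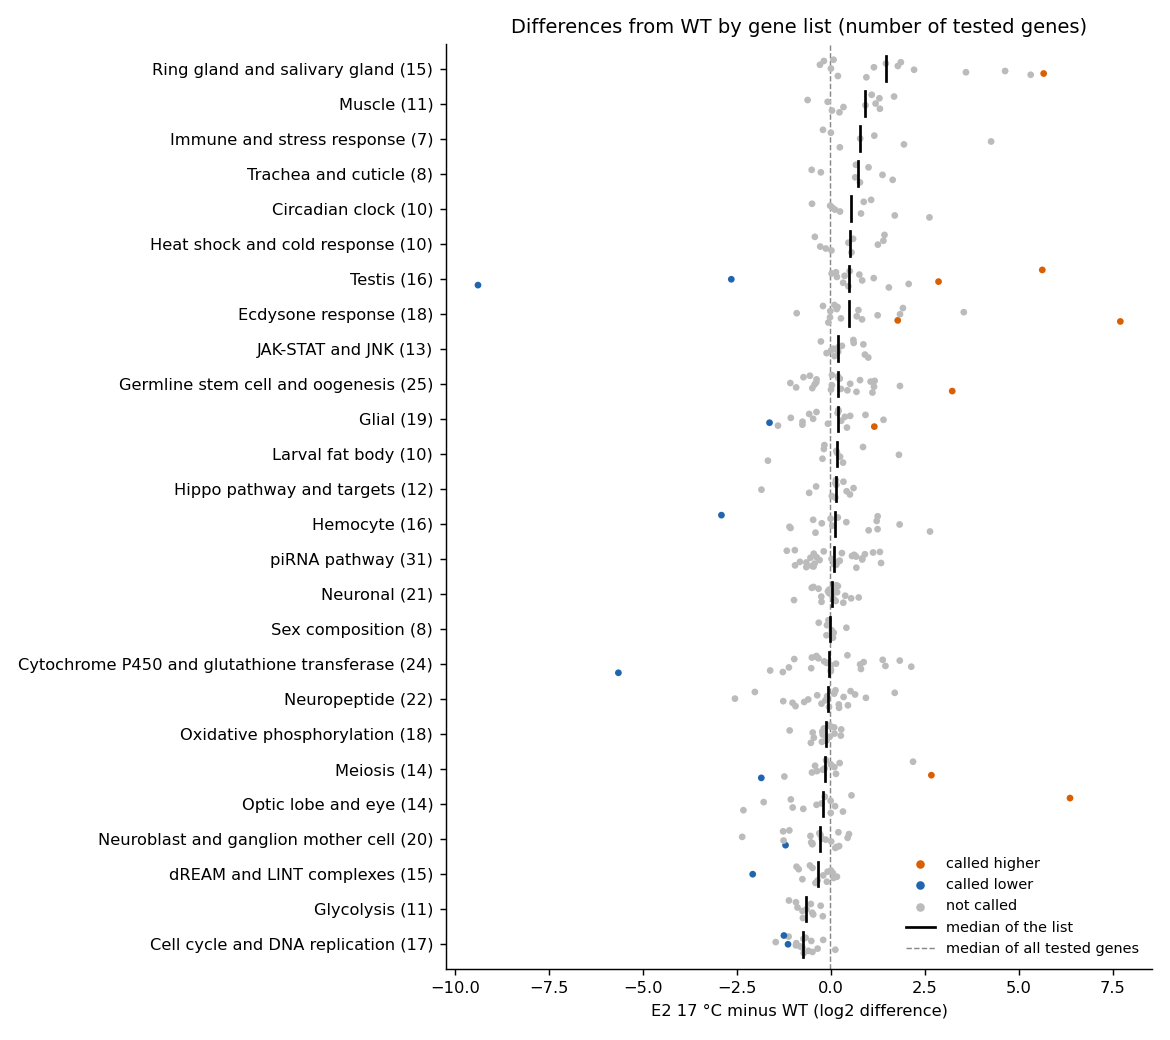
Difference in log2 GCRMA value, E2 17 °C minus WT (horizontal axis), for each tested gene of 26 lists, with the number of tested genes beside each name, a bar at the list's median and a dashed line at the median of all tested genes. Orange and blue points are genes called higher and lower. Cell cycle and glycolysis genes lie mostly left of the dashed line, and ring gland and salivary gland genes mostly right of it.

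Some genes spread widely between the 3 E2 arrays. spok, a gene of ecdysone synthesis in the ring gland, lay at 5.04, 12.08 and 5.28 in E2 and at 5.36, 5.33 and 5.66 in WT. The steroid synthesis genes sad and nvd were likewise high on E2 replicate 2 alone, at 10.89 and 7.30, against values of 4.89 or less and 3.52 or less on the other E2 arrays. The genes spo and sro of the ring gland list did not share this rise, at 4.63 and 3.23 on E2 replicate 2. The muscle genes up and Mlc2, which encode troponin T and a myosin light chain, lay at 5.73 and 6.03 on that array, their highest of the 6. The muscle genes Mlc1, Tm2, Mf and sls were also highest there, while bt, Act87E, Prm, TpnC73F and Act88F were highest on other arrays. ImpE2 was low on E2 replicate 2 at 2.65, against 8.89 and 10.40.

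E2 replicate 1 carried a different set of genes. The glutathione transferase gene GstD2 lay at 10.06 on it, against 2.26 and 2.07 on the other E2 arrays, and Idgf1, a chitinase-like growth factor gene, at 9.83 against 1.79 and 2.58. The hemocyte receptor genes NimC1 and eater lay at 7.41 and 6.05 on this array and at 3.33 or lower on the other 5. Of the hemocyte list, Hml, He, Pxn and crq were also highest on it. The genes vkg, Col4a1, PPO1, PPO2, PPO3, Sr-CI, gcm, lz, pes and srp of that list were highest on other arrays. The cuticle protein gene Cpr78E lay at 10.88, 0.89 and 4.86 in E2 and CG14277 at 11.04, 2.35 and 8.78. Cpr78E was called lower without replicate 1 (difference -3.63, adjusted p = 0.0324), and CG14277 higher without replicate 2 (6.35, adjusted p = 0.0304). CG6125 and Akh, the adipokinetic hormone gene, were low on replicate 1, at 1.88 and 4.22. None of these 8 genes of largest spread (Cpr78E, GstD2, CG14277, Idgf1, ImpE2, spok, CG6125 and Akh) was called against WT in the limma fit of the 24 IRB arrays, although CG14277 was called with array quality weights (adjusted p = 0.0108). The part that attached tissue or stage had in their spread was not tested.

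**Figure D5:**
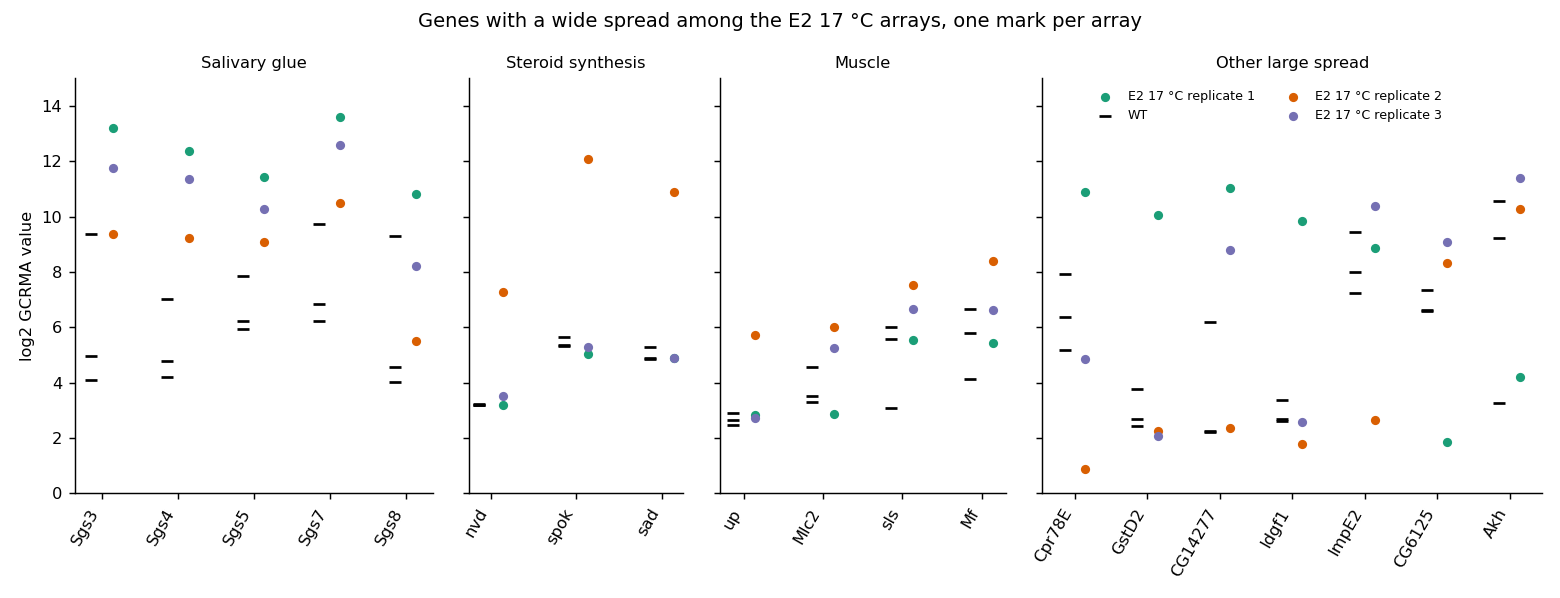
Log2 GCRMA value (vertical axis) of genes with a wide spread among the E2 17 °C arrays, in panels for salivary glue, steroid synthesis, muscle and other genes, with 1 coloured circle per E2 replicate and a dash per WT array. E2 replicate 2 alone is high in spok, sad and nvd, E2 replicate 1 alone in GstD2 and Idgf1, and the glue genes are lowest of the E2 arrays on replicate 2.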

How the data were processed

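Per the submitters' processing notes, the authors made the deposited log2 values with GCRMA, a method that subtracts a sequence-dependent background, puts the arrays on a common distribution and summarises the probes of a set into 1 number. Its version is not given in the sources used here. The WT means of both sites were equal on all 18952 probe sets (largest difference 6.7e-09), so values had been centred on WT before deposition, a step the labels do not describe, and some values lie below the usual background. Differences within IRB hold only if that shift was the same for all IRB arrays. Arrays have no read depth, and 3 arrays per group limit the precision.

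Each of 11982 genes was read by 1 probe set, the brightest over all 33 arrays among the 13647 annotated to 1 gene, with symbols updated by gene ID. The 402 probe sets with several genes and the 4720 without an entry were left aside. The 8264 genes above log2 4 on at least 3 arrays were tested with limma 3.58.1 in R 4.3.3 (linear model, empirical Bayes) on the 24 IRB arrays in 8 groups, with Benjamini-Hochberg adjustment over the tested genes. The ts1 brains were fitted with the 9 EMBL arrays, and the allele effects were compared over 33 arrays in 11 groups. Differences carry the SE of the fit. Alternatives changed the arrays, filter, scaling, probe set rule and moderation. The code was tested on simulated data.

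The text names the 12 largest rises and 12 largest falls without overlap and with the higher mean over 4, up to 3 called genes per list, 16 reference genes and the 8 genes of largest SD in E2. In lists with no call or few, other members are named as examples with their values. The members and lists were chosen with earlier results of these data known. Of 531 list genes, 432 matched the array.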

Additional observations from a re-analysis of the deposited data

Results flagged for a closer look

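For 20 named genes, the effect of E2 at 17 °C against WT at IRB differed from that of ts1 at 17 °C against WT at EMBL by a test of the difference itself (limma over 33 arrays), where 1.21% of all tested genes were called. Higher in E2 were Sgs4 (10.14), lncRNA:CR32368 (8.13), Drsl5 (7.16), CG15404 (6.68), Eip63E (6.30), vis (5.62), KaiR1D (5.09), mthl8 (4.50), Eip78C (3.38), cona (2.15) and Zip102B (1.96), as differences of log2 differences. Lower in E2 were kek4 (-5.78), Cyp12a4 (-5.78), CG30203 (-4.88), Gcat (-4.74), CAH8 (-4.45), CG6356 (-4.21), dpr5 (-3.02), Rbf2 (-2.77) and Kots (-2.24). The Sgs4 value joins a rise in E2 of 5.66 with a difference of -4.48 ± 1.38 in ts1 (adjusted p = 0.244). In ts1 it lay at 0.82, 0.91 and 0.83, a background reading, and WT at EMBL had an SD of 3.20, so its size is not exact. For dpr5 (0.74 in E2, ts1 at 3.76, 3.79 and 3.75) and CAH8 (0.08 in E2, ts1 at 4.51, 4.54 and 4.54) the arrays of each allele had near-constant readings on values centred by site, so their sizes are not exact, and a difference between the alleles cannot be told apart from one between the sites' background readings. The count of 20 was 16, with 11 higher and 5 lower, without E2 replicate 2, and the same without ts1 17 °C replicate 2, whose eIF4a 5' signal minus 3' signal was -5.25. Most of these genes had been chosen for their size in E2, on the same E2 arrays. The allele and the site cannot be told apart beyond the WT arrays.

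Probe sets that the annotation gives to several genes or to none stayed outside the comparison of genes. Of 5122 such probe sets, 2039 passed the filter on low values. Of these 2039, 61 were called, 29 of them higher in E2 than in WT and 32 lower. Among the 8264 tested genes the share called was 3.05%, with 1.48% higher and 1.57% lower. Whether the share among these probe sets differs from that of the genes was not tested.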

How the results depend on the processing

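The count of 252 called genes moved with the arrays that set the spread. It was 482 in the 6 arrays alone, 140 with IRB brains and no tumours, 663 without E2 29 °C replicate 1 and ts1 29 °C replicate 6, 908 with array quality weights, and 496 without these 2 arrays and E2 replicate 2, an alternative chosen after seeing the data. Leaving out each of the 6 arrays gave 137 to 194, with the lowest counts without WT replicate 1 (137) and WT replicate 2 (138). All 252 main calls were among the 663, and 216 among the 482. A site term over 33 arrays gave 221, of which 62% were higher, against 48.4% of the 252, and without E2 replicate 2 62.9% of 194 were higher. The filters, both scalings, the moderation, the mean of probe sets and the p-value alone gave 229 to 340 calls. Replicate numbers did not pair the arrays (r = 0.44, -0.04 and -0.14 for numbers 1 to 3), and a fit with the replicate block gave 11 calls. Of 1089 recomputed differences of named genes, 958 kept direction and side of the threshold, 124 lost the call, 7 gained it and none changed sign in a called gene. Calls in every alternative were kept by 6 of 37 called named genes: lncRNA:CR32368, Zip102B, Eip63E, mthl8, Tektin-C and CAH8. Without each single array, 22 of the 37 kept theirs. Arrays near background limit the size of differences, and 3 arrays a group limit what could be called.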

Other observations

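Chromosome 4, the small chromosome of the fly, held 7 called genes of 65 tested (10.8%), against 2.11% to 3.78% on the other arms. Higher in E2 were 4 (Actbeta, Zip102B, Hcf and Kif3C) and lower were 3 (Gat, sv and CG11360). Hcf, the host cell factor gene, lay at 8.35, 8.02 and 8.34 in E2 against 6.45, 6.43 and 6.57 in WT, and rose by 1.75 ± 0.44 (adjusted p = 0.0313). Gat, the GABA transporter gene of glia, lay at 4.67, 6.07 and 5.56 against 8.74, 9.19 and 7.46, and fell by 3.03 ± 0.45 (adjusted p = 0.000507). sv, the Pax2 gene of the fly, fell by 3.56 ± 0.48 (adjusted p = 0.000173), from 5.22, 5.47 and 5.38 to 2.09, 0.10 and 3.19. CG11360 fell by 1.75 ± 0.29, and the kinesin gene Kif3C rose by 1.37 ± 0.34. These genes were named after their values were seen, and the share for 65 genes rests on 7 calls.

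Of 250 called genes with a place in the annotation, 15 stood next to another called gene in the order of tested genes, in 8 pairs. Of all tested genes 3.05% were called, so some pairs arise in any order of the genes. Whether 8 exceeds that number was not tested. Actbeta, which rose by 4.34 ± 0.47, and sv, which fell, were neighbours in that order. Of the 8 pairs, 5 went in opposite directions and 3 in the same one, such as CG31698 and CG15404, which rose by 3.55 and 5.38.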
